A study of Mus musculus with 2 samples.

Results

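The genes considered here encode the calcium/calmodulin-dependent protein kinases (CaM kinases) and calcineurin, which read calcium signals in neurons. They were taken from the array by symbol: every probe set annotated to exactly 1 gene symbol, where that symbol is one of a list of 9 genes. Of these, 7 genes with 29 probe sets were found among 18193 genes in all, namely Camk2a, Camk2b, Camk2d, Camk2g, Camk4, Ppp3ca and Ppp3cb. The calmodulin genes Calm2 and Calm3 are on the list but had no probe set that could be assigned by this rule, and they were not analysed here.

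Cortical tissue of P4H-TM KO mice and of their WT littermates was compared, all naive males of the C57BL/6J strain aged 2.5 months. P4H-TM KO mice lack transmembrane prolyl 4-hydroxylase, an enzyme linked to the hypoxia-inducible factor HIF, and the arrays were run to learn what this enzyme does in the brain. RNA of 4 mice was pooled per genotype and hybridized to 1 Affymetrix mouse array, so there are 2 arrays in all. No difference therefore has a replicate check, and neither a p-value nor an SD between animals can be given. Values are log2 expression levels as the authors normalized them, and a difference is the log2 value of P4H-TM KO minus that of WT. The signal of a probe set depends on its sequence, so levels are compared between genotypes and not between probe sets or genes.

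When calcium enters a neuron it binds calmodulin, and calcium-loaded calmodulin switches on both kinases and a phosphatase. CaM kinase II is a large assembly of alpha, beta, delta and gamma subunits, encoded by Camk2a, Camk2b, Camk2d and Camk2g. The alpha and beta subunits predominate in forebrain neurons and are known for their part in synaptic plasticity, whereas the delta and gamma subunits are also made in many other tissues. CaM kinase IV, encoded by Camk4, acts largely in the nucleus, where it phosphorylates the transcription factor CREB. Calcineurin removes phosphate groups, for example from NFAT transcription factors, and Ppp3ca and Ppp3cb encode its alpha and beta catalytic subunits.

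P4htm, the targeted gene, had 9.10 in P4H-TM KO and 11.05 in WT on its brighter probe set, a difference of −1.95, and its other probe set differed by −1.64. Over all genes the median difference was 0.00. Markers of cortical neurons were well detected: 7 of 8 measured markers of excitatory neurons and 6 of 6 of interneurons reached the signal filter described next, with median differences of 0.04 and −0.015. Markers of other tissue moved between the arrays. All 8 markers of the choroid plexus had higher values in P4H-TM KO (median difference 1.68), as did 5 of 6 markers of the meninges (median 0.34), and all 5 measured oligodendrocyte markers were lower (median −0.24). Markers of neighboring brain regions were mostly lower as well, 5 of 6 of the hippocampus (median −0.155) and 3 of 4 measured ones of the striatum. The striatal median was −0.24, and −0.12 for the 3 markers that reached the signal filter. Among the lower ones were the hippocampal markers Spink8 and Dsp, with differences of −2.07 and −0.30, and the striatal marker Penk with −0.40. Spink8 lies on chromosome 9, as P4htm does, and the part of this position in its difference was not tested. The other hippocampal markers ran from −0.30 to 0.00. Astrocyte and microglia markers had medians of −0.045 and −0.02. In such bulk tissue, fewer cells of a type and less RNA per cell cannot be told apart.

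Each gene was described first on its brightest probe set, by the mean of the 2 arrays. Counts were limited to means of at least 6.385, which is the median signal of the table, and used a threshold of 1.2-fold, which is 0.26 on the log2 scale. All 7 genes reached this signal. Camk2d alone passed this threshold, with the higher value in P4H-TM KO, and none of the other 6 genes did in either direction. Over all 11730 genes at this signal, 2.9% were at least 1.2-fold higher and 1.83% at least 1.2-fold lower, so 1 gene in 7 is too few to set against these shares. At 1.5-fold no member was higher or lower, against 0.631% higher and 0.0512% lower of all genes. The median difference of the 7 genes was −0.03, with 3 genes higher and 4 lower, and the median of all genes at this signal was 0.01. As means the values were 0.0129 for the members and 0.0114 for all genes, and the member mean includes the 0.36 of Camk2d. With Camk2d, the 21 member probe sets at or above the filter had a median of −0.03, with 11 lower, 9 higher and 1 equal. Without Camk2d, the 18 member probe sets at or above the filter had a median of −0.045, with 11 lower, 6 higher and 1 equal. These 18 come from 6 genes, and Camk2d was left out because of its own difference, a step not applied to all probe sets. Over all probe sets with 1 symbol at that signal the median was 0.01, with 44.4% lower.

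**Figure D1:**
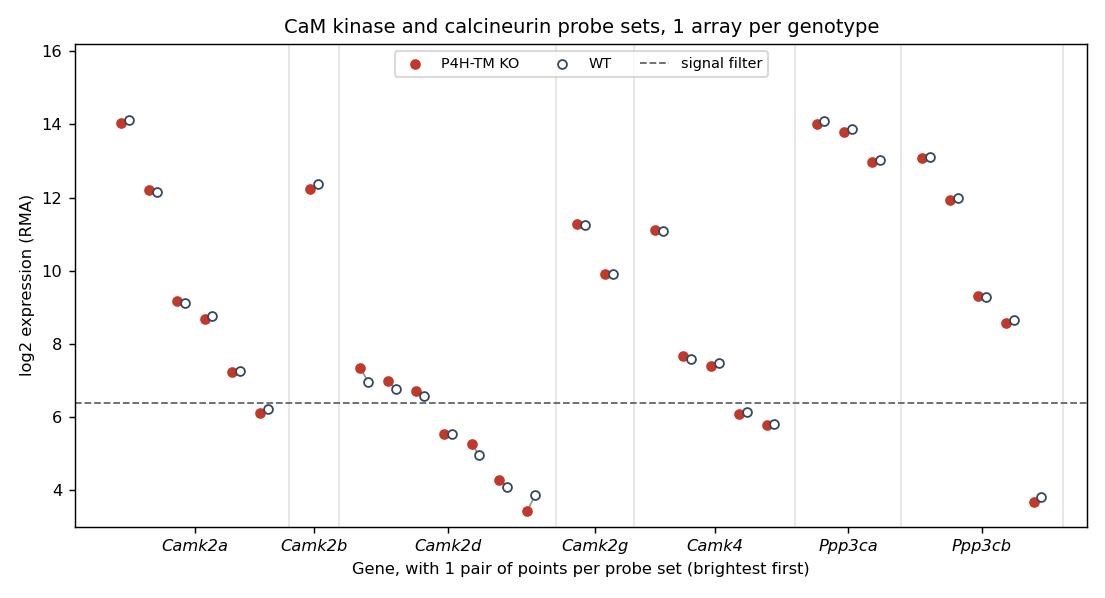
Log2 expression of every probe set of the CaM kinase and calcineurin genes in the P4H-TM KO array (red points, left of each pair) and in the WT array (open circles, right), with probe sets of a gene ordered by signal; the filter of 6.385 is dashed. Most pairs lie at nearly the same height, and the 3 brightest Camk2d probe sets lie higher in P4H-TM KO, by 0.36, 0.23 and 0.13; there are no error bars because each genotype has 1 array.

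Camk2d, which encodes the delta subunit of CaM kinase II, had the highest difference of the members. Its brightest probe set had 7.33 in P4H-TM KO and 6.97 in WT, a difference of 0.36 or 1.28-fold. Of all genes at or above the filter, 1.58% had a difference at least as high. The next probe sets had 6.99 in P4H-TM KO against 6.76 in WT, a difference of 0.23, and 6.70 against 6.57, a difference of 0.13. All 3 Camk2d probe sets at or above the filter were thus higher in P4H-TM KO, although only the brightest passed 1.2-fold.

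The other 4 Camk2d probe sets lay below the filter and did not share a direction. They had 5.25 in P4H-TM KO against 4.96 in WT, 4.28 against 4.10, 5.55 on both arrays, and 3.44 against 3.86, which are differences of 0.29, 0.18, 0.00 and −0.42. The average over all 7 probe sets was 0.11, which is under 1.2-fold. Among probe sets within 0.5 of its signal, 4.17% differed by at least as much as the brightest Camk2d probe set in either direction, and 2.27% by as much as the dimmest. Camk2d is one of the calcium-signaling genes that the study itself displayed from these arrays, so its direction here is not independent evidence.

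Several markers of vessels and of the tissue bordering the cortex were higher on the same array as Camk2d. Of the 8 measured endothelial and mural markers, 6 had higher values in P4H-TM KO. The highest were Acta2, Tagln and Myh11 of smooth muscle, with differences of 0.63, 0.37 and 0.35. The 3 probe sets of Acta2 ran from 0.07 to 0.63. Pdgfrb, Cldn5 and Rgs5 differed by 0.12, 0.11 and 0.08, Flt1 by 0.00 and Pecam1, below the filter, by −0.03. The summed level of the endothelial and mural list was 12.94 in P4H-TM KO and 12.77 in WT as a log2 value. For the choroid plexus list it was 15.10 in P4H-TM KO and 14.58 in WT, and for the meninges list 11.96 in P4H-TM KO and 11.29 in WT. The choroid plexus sum is carried by its brightest marker, Ttr, at 14.86 in P4H-TM KO and 14.49 in WT, so it moved less than the list median of 1.68, and 7 of the 8 markers were at least 1.5-fold higher. No marker of these lists is at 0, a value that does not occur on this log2 scale. Their part in the Camk2d difference was not tested.

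Camk2b, which encodes the beta subunit and carries 1 probe set, had the lowest difference of the members. It had 12.23 in P4H-TM KO and 12.36 in WT, a difference of −0.13 or 1.09-fold. Bright probe sets differed little between the arrays: of those within 0.5 of the Camk2b signal, 7.34% differed by at least this much in either direction, and their 5th and 95th percentiles were −0.12 and 0.10. With a single probe set there is no second reading of this gene.

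Camk2a, which encodes the alpha subunit, had 14.05 in P4H-TM KO and 14.13 in WT on its brightest probe set, a difference of −0.08. Its next probe set had 12.21 in P4H-TM KO and 12.16 in WT and so differed by 0.05, in the other direction. The remaining probe sets had 9.17 in P4H-TM KO against 9.11 in WT, 8.67 against 8.75, 7.22 against 7.26 and, below the filter, 6.12 against 6.23. Their differences ran from −0.11 to 0.06, and all 6 averaged −0.03. Camk2g, which encodes the gamma subunit, had 11.29 in P4H-TM KO against 11.26 in WT on its brighter probe set and 9.91 on both arrays on the other.

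The subunits of CaM kinase II thus differed in their readings on these arrays. The Camk2d difference exceeded that of Camk2b by 0.49, that of Camk2a by 0.44 and that of Camk2g by 0.33 on the log2 scale. With probe sets averaged these gaps were 0.24, 0.14 and 0.10. As a yardstick, different probe sets of the same gene scattered around their shared mean difference with an SD of 0.10, pooled across 5101 genes at or above the filter. This SD pools bright and dim signals, and dim ones scattered more. For genes between 6.385 and 8, where Camk2d lies, 90% of absolute differences were at most 0.27, against 0.097 at 12 or above. A gap also carries the scatter of both genes, and Camk2d and Camk2b are the extremes of the members. The gaps should therefore not be counted in units of this SD. Scatter between probe sets says nothing of how mice vary, and none of the gaps could be tested.

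The 250 bases before the start of Camk2d and of Camk2b are shown because these genes had the highest and the lowest difference. They are from RefSeq on build GRCm38.p6, chr3:126596701-126596950 on the plus strand and chr11:6065749-6065998 on the minus strand, and are printed 5′ to 3′ on the strand of the gene, with the start site at their right end. Capitals mark the core letters of the HIF binding motif, ACGTG or GCGTG on either strand. This motif is of interest because P4H-TM has been reported to act on HIF.
Camk2d: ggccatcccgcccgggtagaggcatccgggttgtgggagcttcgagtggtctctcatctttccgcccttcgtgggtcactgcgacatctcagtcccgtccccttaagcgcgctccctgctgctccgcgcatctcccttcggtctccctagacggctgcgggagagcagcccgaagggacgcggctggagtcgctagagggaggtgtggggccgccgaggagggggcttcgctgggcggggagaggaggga
Camk2b: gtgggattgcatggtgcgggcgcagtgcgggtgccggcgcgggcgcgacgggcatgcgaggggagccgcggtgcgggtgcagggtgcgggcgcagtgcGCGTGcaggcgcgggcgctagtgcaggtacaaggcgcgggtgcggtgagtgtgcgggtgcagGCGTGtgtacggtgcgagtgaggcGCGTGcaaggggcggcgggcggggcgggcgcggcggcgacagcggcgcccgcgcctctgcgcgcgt
The Camk2d window held no such core and the Camk2b window held 3, all of the letters GCGTG. Of 32851 windows of this length in the table, 38.6% held at least 1 core, 28.2% for GCGTG and 16.6% for ACGTG. The CREB motif TGACGTCA, a palindrome that was looked for as the target of CaM kinase IV signaling, was in neither window and in 1.55% of all windows. A match of letters is a description and does not show that a factor binds there, nor does a missing match show the reverse.

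Camk4 had 11.11 in P4H-TM KO and 11.09 in WT on its brightest probe set, a difference of 0.02. Its other probe sets at or above the filter had 7.66 in P4H-TM KO against 7.60 in WT and 7.40 against 7.48, and the 2 below it had 6.08 against 6.14 and 5.79 against 5.80. The differences of this gene therefore stayed between −0.08 and 0.06 and had no common direction.

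Of the calcineurin genes, Ppp3ca had lower values in P4H-TM KO on all of its probe sets, by a small amount. These had 14.02 in P4H-TM KO against 14.10 in WT, 13.79 against 13.87 and 12.96 against 13.03, which are differences of −0.08, −0.08 and −0.07. The 3 readings lie close together, but they come from the same pair of pools and are no replicates. Among probe sets of similar signal, 14.8% to 19.9% differed by at least as much.

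Ppp3cb had 13.09 in P4H-TM KO and 13.12 in WT on its brightest probe set, a difference of −0.03. Its other probe sets at or above the filter had 11.94 in P4H-TM KO against 11.99 in WT, 9.30 against 9.29 and 8.57 against 8.64. The remaining probe set, at 3.68 in P4H-TM KO and 3.82 in WT, lay far below the filter. On 4 of 5 probe sets the value was lower in P4H-TM KO, with differences between −0.14 and 0.01.

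**Figure D2:**
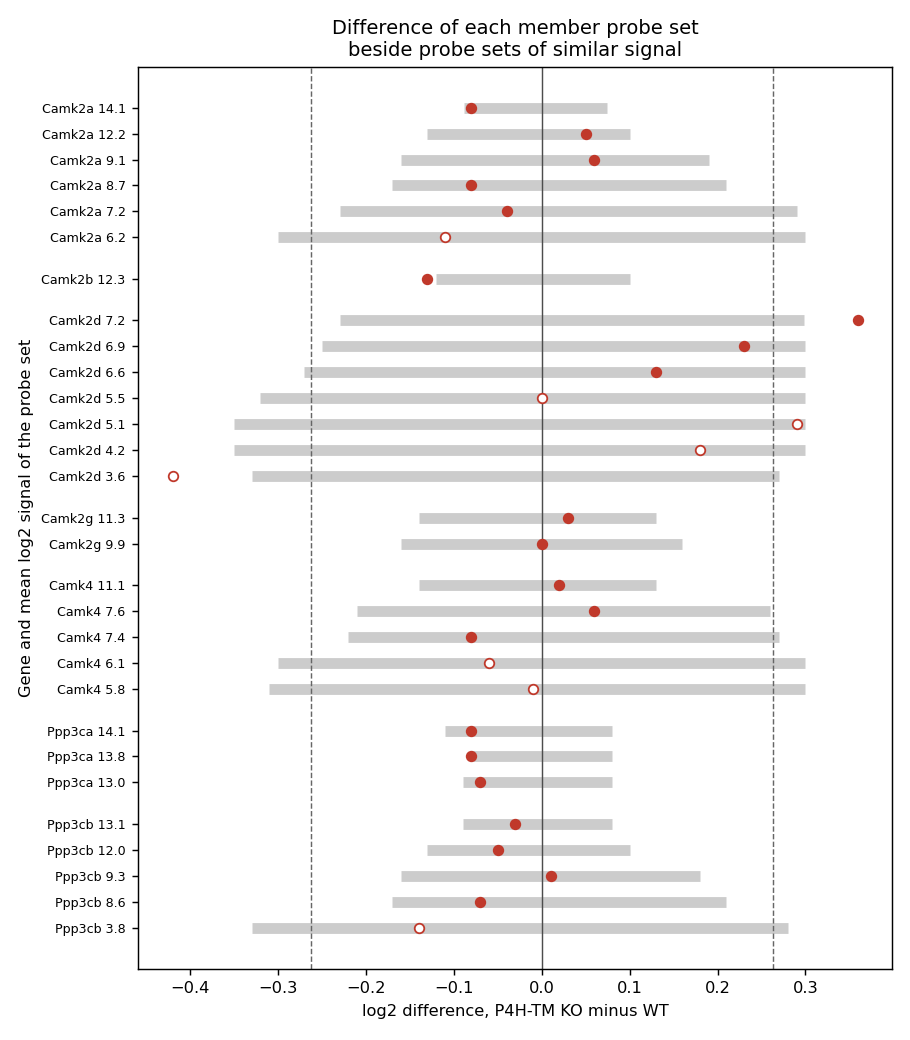
Log2 difference (P4H-TM KO minus WT) of each member probe set, labelled with its gene and mean log2 signal, where filled points are at or above the signal filter and open points below it; grey bars span the 5th to 95th percentile of all probe sets within 0.5 of the same signal and dashed lines mark 1.2-fold. The brightest Camk2d probe set at 0.36 lies above its bar, and Camk2b at −0.13 and the dimmest Camk2d probe set at −0.42 lie below theirs. The other 26 of the 29 points lie within or at the edge of their bars. By construction about 10% of all probe sets of similar signal lie outside such a bar, so points outside are not particular to the members.

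Over all 29 probe sets, 11 were higher in P4H-TM KO, 16 were lower and 2 were equal, so that 55.2% were lower, against 48.2% of all 34945 probe sets with 1 symbol. Of the 21 at or above the filter, 1 passed 1.2-fold upward and 0 passed it downward, against 3.11% and 1.95% of the 19933 probe sets with 1 symbol at that signal. Of these 21, 9 were higher and 11 lower, that is 52.4% lower against 44.4% of all probe sets at that signal, with a mean difference of 0.0076 against 0.013. Of the 7 brightest member probe sets, those with a mean of at least 12, 6 were lower in P4H-TM KO and 1 was higher, with a median of −0.08. Of the 684 genes whose mean was 12 or above, 47.2% were lower and the median difference was 0.00. That is a share of genes, each on its brightest probe set, and not of probe sets. Of the 2355 probe sets with 1 symbol and a mean of 11 or above, 47.3% were lower, with a median of 0.00. These 7 probe sets stem from 4 genes, with 3 from Ppp3ca alone. Oligodendrocyte markers and most hippocampus and striatum markers were lower on the same array, with the medians given above. Their part in the values of the member probe sets was not tested.

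**Figure D3:**
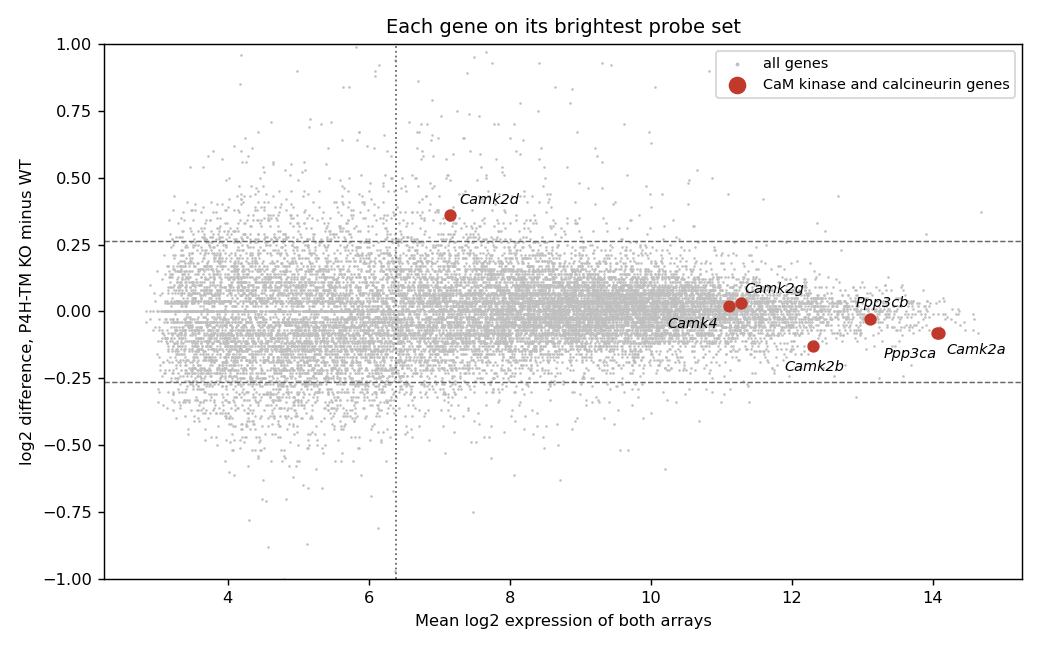
Log2 difference (P4H-TM KO minus WT) against mean log2 expression of both arrays for all genes (grey) and the CaM kinase and calcineurin genes (red), each on its brightest probe set, with dashed lines at 1.2-fold and a dotted line at the signal filter; 36 genes lie beyond the plotted range. Camk2a, Camk2b, Ppp3ca and Ppp3cb lie at −0.13 to −0.03, Camk4 and Camk2g at 0.02 and 0.03, and Camk2d at 0.36.

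The remaining genes of the pathway were listed by role from general knowledge. Over all genes at or above the filter, 2.9% were at least 1.2-fold higher and 1.83% at least 1.2-fold lower. Counts in lists this short are too few to set against these shares. Among calmodulin-like and small calmodulin-binding proteins, 1 of 5 genes with sufficient signal was at least 1.2-fold higher and none was lower. This was Calml4, a calmodulin-like light chain known from epithelial microvilli, with 9.16 in P4H-TM KO and 7.87 in WT, a difference of 1.29 or 2.45-fold on its only probe set. Choroid plexus markers, with their median difference of 1.68, were higher on the same array, and their part in the Calml4 difference was not tested. Gap43 and Pcp4l1 had differences of 0.21 and 0.19. Nrgn and Pcp4, whose products hold calmodulin at low calcium, had 12.75 and 12.92 in P4H-TM KO against 12.78 and 13.01 in WT, and so differed by −0.03 and −0.09. The median of the 6 measured genes was 0.08, and 0.19 for the 5 with sufficient signal.

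Of the other CaM kinases, their activators and their inhibitors, none of the 11 genes with sufficient signal differed by 1.2-fold, and the median was −0.045 for the 14 measured genes and −0.01 for those 11. Pnck and Camk1, both of the CaM kinase I group, had the highest differences, 0.24 and 0.23. Camk1d had 11.53 in P4H-TM KO and 11.70 in WT on its brightest probe set, a difference of −0.17, but another of its probe sets differed by 0.22. Camkv, a kinase-like protein without catalytic activity, differed by −0.09. It lies on chromosome 9 as P4htm does, 25 genes with sufficient signal from it. Nrgn, Calml4 and Rasgrf1 are on chromosome 9 too, at least 125 such genes away, as is Dapk2, which lay below the filter with a difference of −0.24. None of the 7 members is on that chromosome.

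Among the other calcineurin genes, none of 9 differed by 1.2-fold and the median of the 11 measured genes was 0.02. Ppp3r1, which encodes the regulatory subunit found in brain, had 13.59 in P4H-TM KO and 13.64 in WT on its brighter probe set. Its other probe set, also at or above the filter, differed by −0.15. Ppp3cc, the gene of the third catalytic subunit, differed by −0.16 on one probe set and by 0.29 on a dimmer one. Rcan2, an inhibitor of calcineurin, differed by −0.14, and by −0.58 on a probe set below the filter. Rcan1, an inhibitor whose gene is itself induced by calcineurin, had 9.89 in P4H-TM KO and 9.86 in WT. Akap9 and Rcan3 had the highest differences with sufficient signal, at 0.17 and 0.07 on their brightest probe sets. The 6 probe sets of Akap9 ran from −0.26 to 0.17, and the dimmer probe set of Rcan3 differed by −0.13.

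Transcription factors and coactivators under these enzymes had a median difference of 0.08 over 15 measured genes, and none of 14 with sufficient signal differed by 1.2-fold. This median was 0.0467 with probe sets averaged, and the mean of the list was 0.0247. Their differences ran from −0.18 for Crtc2, a CREB coactivator, to 0.14 for Hdac4, a repressor that leaves the nucleus when CaM kinases phosphorylate it. The next lowest was Nfatc2, an NFAT factor that calcineurin activates, at −0.12, and Crem, Crtc1, Crtc3 and Hdac5 followed Hdac4 at 0.12 each. These are values of the brightest probe sets, and others often differed in direction. The dimmer probe set of Crtc2 differed by 0.13 and that of Crtc3 by −0.13. Probe sets of Nfatc2 ran from −0.15 to 0.24, of Crem from −0.09 to 0.16 and of Hdac4 from −0.03 to 0.14. Those of Crtc1 ran from 0.04 to 0.15. Creb1 had 10.62 in P4H-TM KO and 10.53 in WT on its brightest probe set, and its 6 probe sets ran from −0.08 to 0.27. Of the 12 neuronal calcium sensors and related proteins none differed by 1.2-fold, with 9 higher, 3 lower and a median of 0.07. Hpcal1 and Calb2, with 1 probe set each, were at the upper end with 0.24 and 0.19. Cabp7 and Vsnl1 were at the lower end with −0.15 and −0.07 on their brightest probe sets. Their second probe sets, also at or above the filter, differed the other way, by 0.12 and 0.15.

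The 12 other enzymes that calmodulin activates had a median of 0.015 and a mean of 0.0558. Of these 12, 1 was at least 1.2-fold higher, against 2.9% of all genes at or above the filter. This was Adcy8, a calcium-stimulated adenylyl cyclase, with 7.78 in P4H-TM KO and 7.37 in WT, a difference of 0.41 on its only probe set. Its signal lies between 6.385 and 8, where 90% of absolute differences over all genes were at most 0.27. Adcy8 is also among the genes the study displayed from these arrays. Pde1a, a phosphodiesterase that breaks down cyclic nucleotides, had 11.76 in P4H-TM KO and 11.51 in WT, a difference of 0.25. At the lower end, Itpka, Pde1c and Adcy3 differed by −0.07 each, and the probe sets of Adcy3 ran from −0.07 to 0.07.

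**Figure D4:**
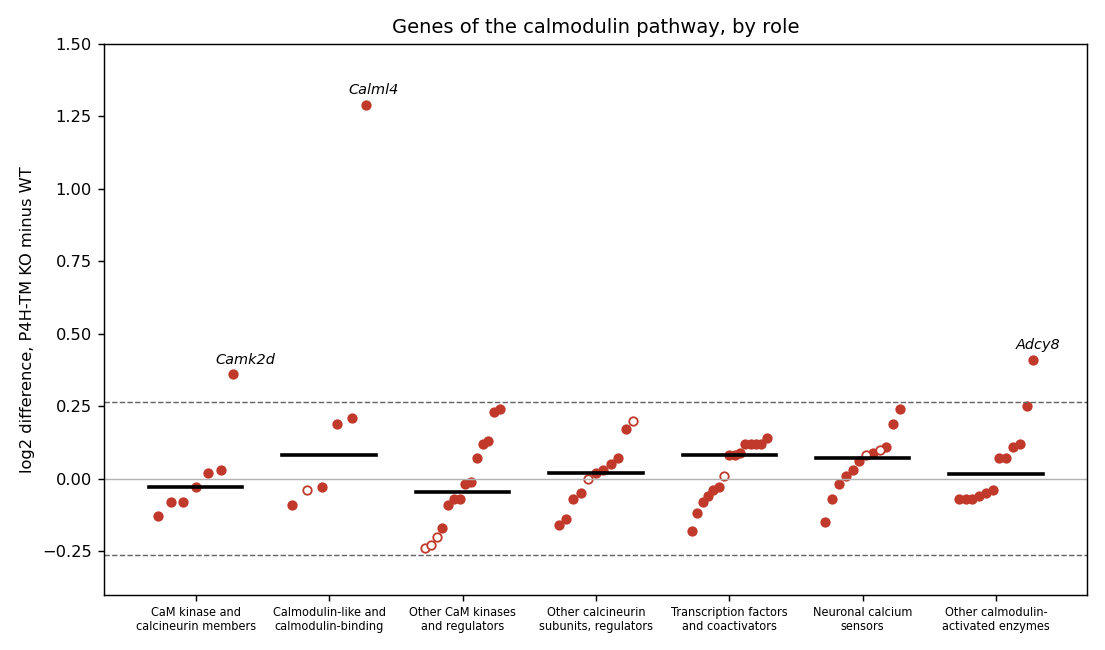
Log2 difference (P4H-TM KO minus WT) of each measured gene of the calmodulin pathway on its brightest probe set, grouped by role along the horizontal axis; filled points are at or above the signal filter, open points below it, black bars are list medians and dashed lines mark 1.2-fold. Medians lie between −0.045 and 0.08, and Camk2d, Calml4 and Adcy8, at 0.36, 1.29 and 0.41, are the genes with sufficient signal beyond 1.2-fold.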

How the data were processed

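Biotin-labelled RNA of 1 pool of 4 mice per genotype was hybridized to Affymetrix Mouse Genome arrays. The authors read the scans with GeneChip Operating System software and used GenePattern for normalization, and the submitters' processing notes name RMA; versions are not given in the sources used here. The deposited values are log2 expression levels per probe set, rounded to 2 decimals, so small differences are coarse. The range was 2.69 to 14.91 and the array medians 6.39 (P4H-TM KO) and 6.38 (WT). RMA sets both arrays to 1 distribution, which hides any change common to most genes, and it compresses low signals. The number of arrays limits the precision.

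Of 45101 probe sets, 64 are controls and were left out, 932 carry several symbols and 9160 are unnamed here. The other 34945 carry 1 symbol in the platform annotation, and gene IDs matched to RefSeq changed none of these symbols. Chromosomes and gene order came from RefSeq, build GRCm38.p6. Named were all members, P4htm, the pathway genes at least 1.2-fold different, the 2 highest and 2 lowest of each list at or above the filter, and pathway genes on the chromosome of P4htm. Ppp3r1, Rcan1, Creb1 and the named markers of other tissue do not follow this rule and were picked with their values in view. The members and lists were chosen with earlier results of these data known. Counting, centring and trend removal were tested on simulated data. Alternatives comprised averaged probe sets, omission of probe sets marked s or x, centred arrays, a loess trend removed (span 0.3), other filters (none and the 70th percentile, 8.11) and thresholds of 1.1-fold and 1.5-fold. An alternative for linear values did not apply. The work was done in Python 3.11.15 with pandas 2.3.3, statsmodels 0.14.6 for loess, numpy 2.4.6 and, for plots, matplotlib 3.10.9.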

Additional observations from a re-analysis of the deposited data

How the results depend on the processing

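No paired analysis was possible because there is 1 array per genotype, and no replicate could be left out. The count of 1 member at least 1.2-fold higher, Camk2d, became 0 with probe sets averaged (Camk2d difference 0.11), 0 with the stricter filter (70th percentile), which removes Camk2d, and 0 at 1.5-fold. For member probe sets at least 1.2-fold higher, the count of 1 became 2 without a filter, 2 at 1.1-fold, 0 at 1.5-fold and 0 with the stricter filter, and for those lower, the count of 0 became 1 without a filter. Of 28 alternatives to the difference of a single member, 27 moved it by less than the SD between probe sets, 0.10, the exception being the Camk2d average. Of 42 alternatives to list medians, 36 moved them by less than the error such an SD gives a median. The median of calmodulin-binding proteins (0.08) was 0.19 above the filter and 0.255 as a mean, that of other CaM kinases (−0.045) −0.01 above the filter, that of transcription factors (0.08) 0.0467 with probe sets averaged and 0.0247 as a mean, and that of other enzymes (0.015) 0.0558 as a mean. P4htm (−1.95) stood at −1.795 as an average of its probe sets and at −1.64 once those marked s or x were dropped. Dim signals scattered more: 90% of absolute differences were at most 0.27 for genes between 6.385 and 8, where Camk2d lies, and at most 0.097 for those at 12 or above.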
